A study of Homo sapiens with 24 samples.

Results

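The MYC network is the set of transcription factors that share MAX as dimer partner. Its 10 genes examined here are MYC, MYCL and MYCN, their partner MAX, the MAX-binding repressors MXD1, MXD3, MXD4, MXI1 and MNT, and MGA. They were matched by symbol among the 58381 gene IDs of the count table, all 10 were found, and all 10 were among the 20820 genes with enough reads to test. Messenger RNA had been sequenced from T24, 5637, TCC-SUP and CLS-439, 4 lines labelled as human bladder cancer cells, exposed to the DNA crosslinking drug mitomycin C (MMC) or left untreated (NT). Treated cells had 75 µM of the drug for 1 h, and were lysed 15 h after treatment. Each of the 8 groups had 3 libraries, numbered 1, 3 and 4 and called biological replicates in the series' text, so 24 libraries were compared.

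Proteins of the MYC family bind DNA only as a pair with MAX, at the sequence CACGTG or close variants called E-boxes, and raise transcription of genes for ribosome production, nucleotide synthesis and cell division. The MXD proteins, MXI1 and MNT compete for the same partner and the same sites and bring in SIN3 and histone deacetylases, which lower transcription. MGA also pairs with MAX and is the scaffold of a Polycomb repressive complex. The messenger RNA of MYC is short-lived, which makes its level quick to follow a change in synthesis.

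Library totals lay between 13791428 and 28821665 counted reads. The CLS-439 libraries stood apart: 0.0238% to 0.0283% of their reads were on mitochondrial genes, against 3.21% to 7.40% in the other 18 libraries, and 2.75% to 3.05% were on processed pseudogenes, against at most 0.228%. What sets these shares was not tested, nor was the match of the CLS-439 reads to the human reference, so levels and fold changes in CLS-439 carry that limit, and comparisons of other lines with it, and averages over lines, are also given without it. Of 13 epithelial and urothelial markers, 10 and 11 averaged at least 1 CPM in MMC and NT libraries of 5637, 9 and 8 in CLS-439, 8 and 9 in TCC-SUP, and 7 and 7 in T24. Their summed level was 4131 to 6038 CPM with MMC and 6553 to 7655 CPM without in 5637, 1780 to 2320 and 2595 to 2923 CPM in CLS-439, 1167 to 2264 and 2108 to 2833 CPM in TCC-SUP, and 3223 to 6965 and 5416 to 6984 CPM in T24. KRT5, TP63, CDH1 and UPK1B were near 0 in T24, and KRT5 and TP63 in CLS-439. The sum of 7 mesenchymal markers was 5732 to 8136 CPM with MMC and 11034 to 13487 CPM without in TCC-SUP, 4055 to 4258 and 5178 to 5446 CPM in CLS-439, 4139.8 to 6314 and 5595 to 8699.6 CPM in T24, and 1877 to 3646 and 2495 to 3012 CPM in 5637. The sum of 7 blood and endothelial markers was at most 2.11 CPM in T24, 5637 and CLS-439, and lay at 18.3 to 25.9 CPM with MMC and 35.7 to 43.5 CPM without in TCC-SUP. The part of these marker shifts in the results below was not tested. Levels are counts scaled to a common library size (CPM) after TMM scaling, with the SD over 3 libraries. Fold changes are log2 estimates of edgeR's quasi-likelihood fit with their standard errors (SE), and a gene is said to have changed where its p, adjusted by Benjamini-Hochberg over all 20820 genes, was under 0.05.

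In untreated cells MYC and MAX were the highest members per kilobase of exon, and the lines differed in which further members they had. Per kilobase of exon, the mean level of MYC was between 17.7 and 77.6 CPM per kb over the 8 groups and that of MAX between 13.1 and 17.1. None of the other 8 genes passed 7.33 CPM per kb in any group. This ranking rests on division by the merged exon length of all transcripts, which is longest for MGA (17.65 kb). In CPM, untreated MGA was above MAX in T24 (63.9 and 62.5), TCC-SUP (66.4 and 57.8) and CLS-439 (66.5 and 58.2). It was below MAX in 5637 (65.0 and 73.8). MAX and MGA were the most even members over the untreated lines, with the highest mean 1.28 times the lowest for MAX and 1.04 times for MGA, while the ratio was 39.7 for MYCL.

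**Figure D1:**
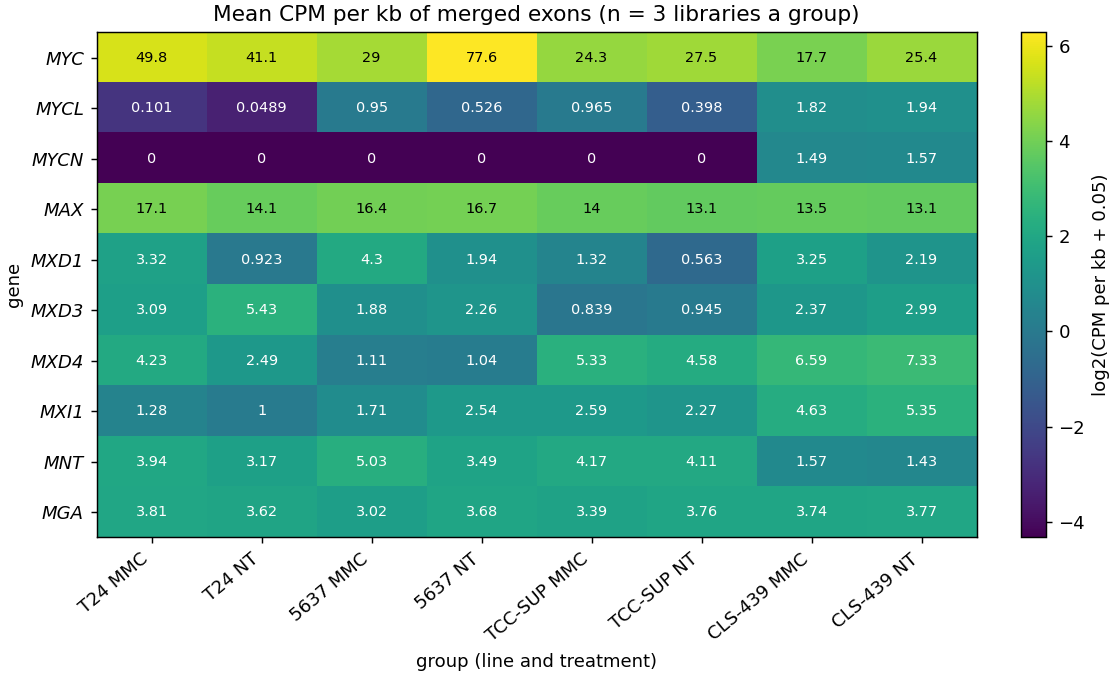
Mean level of each of the 10 network genes (rows) in each group (columns, 3 libraries each), as log2 of CPM per kilobase of merged exons plus 0.05. MYC and MAX form the brightest rows throughout, MYCN shows a level in CLS-439 alone, and the row of MYCL is darkest in T24.

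Untreated MYC (GRCh38 chr8:127735434-127741434, plus strand) was highest in 5637, at 271, 212.5 and 215 CPM. It had 118, 130.1 and 122 CPM in T24, 64.3, 107 and 76.1 CPM in TCC-SUP, and 67.2, 90.8 and 70.3 CPM in CLS-439. The 5637 libraries lay above all T24 libraries and these above all TCC-SUP libraries, while TCC-SUP and CLS-439 overlapped. Against the mean of the other untreated lines, MYC was higher in 5637 by 1.34 (SE 0.18, adjusted p = 5.45e-07), lower in TCC-SUP by a log2 difference of -0.66 (SE 0.20, adjusted p = 0.00607) and lower in CLS-439 by -0.81 (SE 0.20, adjusted p = 0.000829). The call for MYC in TCC-SUP was lost without untreated replicate 1 of that line (adjusted p = 0.0766). With CLS-439 left out, so that each line was set against the mean of the other 2, MYC was at 1.18 in 5637 (adjusted p = 7.93e-05) and at -1.02 in TCC-SUP (adjusted p = 0.000585).

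MYCL and MYCN, the relatives of MYC named for lung cancer and neuroblastoma, were highest in CLS-439. MYCL (chr1:39895426-39902256, minus strand) averaged 9.84 ± 2.31 CPM in untreated CLS-439, 2.66 ± 0.24 CPM in 5637, 2.01 ± 0.069 CPM in TCC-SUP and 0.25 ± 0.15 CPM in T24 (SD, n = 3 each), and no neighbours in that order overlapped. Its difference from the mean of the other lines was 3.14 in CLS-439 (SE 0.20, adjusted p = 3.36e-13) and -3.85 in T24 (SE 0.31, adjusted p = 1.49e-10). MYCN (chr2:15940564-15947007, plus strand) had 62 to 95 reads in each CLS-439 library and 0 reads in all of the other 18. In untreated CLS-439 it was at 4.09 ± 0.32 CPM, at least 272-fold higher than the floor of 3 reads over the 9 other untreated libraries (0.015 CPM). MYCN passed the filter on low counts through CLS-439 only, so it has no test in the other lines.

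The repressors were distributed differently in each line. Untreated T24 had the highest MXD3 (28.0 ± 5.65 CPM, difference 1.55, SE 0.16, adjusted p = 8.54e-09) and the lowest MXI1 (4.62 ± 0.97 CPM, difference -1.64, SE 0.16, adjusted p = 3.28e-09). Untreated 5637 had the lowest MXD4 (7.33 ± 0.62 CPM, difference -2.08, SE 0.18, adjusted p = 1.97e-10) and, with CLS-439, the highest MXD1. Untreated TCC-SUP had the lowest MXD1 (3.58 ± 0.41 CPM, difference -1.48, SE 0.21, adjusted p = 1.26e-06), the lowest MXD3 (4.87 ± 0.25 CPM, difference -1.81, SE 0.19, adjusted p = 1.22e-08) and the highest MNT (35.9 ± 1.75 CPM, difference 0.71, SE 0.14, adjusted p = 6.33e-05). Untreated CLS-439 had the highest MXD4 (51.7 ± 0.61 CPM, difference 1.68, SE 0.14, adjusted p = 5.89e-11), the highest MXI1 (24.7 ± 1.35 CPM, difference 1.58, SE 0.13, adjusted p = 6.04e-11) and the lowest MNT (12.5 ± 1.17 CPM, difference -1.32, SE 0.15, adjusted p = 2.86e-08).

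Without CLS-439, the differences were 1.91 for MXD3 and -1.24 for MXI1 in T24, -1.74 for MXD4 in 5637, and -1.23 for MXD1 and -1.87 for MXD3 in TCC-SUP, all called (adjusted p from 3.76e-08 to 0.000238), while MNT in TCC-SUP was at 0.32 (adjusted p = 0.0629). MYCL in T24 was then at -3.15 (adjusted p = 2.75e-07).

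In all, 5 of 9 members with reads differed in untreated T24, 6 of 9 in 5637, 5 of 9 in TCC-SUP and 7 of 9 in CLS-439, apart from MYCN. Of all genes tested, 50.7%, 57%, 61.3% and 74.6% differed in the same comparisons, so the members' shares are near the background. Without CLS-439, 3 of 9 differed in T24, 6 in 5637 and 6 in TCC-SUP. Of all genes, 8975, 10048 and 10674 differed in that fit, in place of 10547, 11868 and 12762. The number of genes tested in that fit is not given here, so no share is set beside the members. MYCL (1.29, adjusted p = 0.000433) and MXI1 (0.52, adjusted p = 0.0105) were then called higher in TCC-SUP, and MXI1 (0.72, adjusted p = 0.00101) in 5637. Smaller differences rested on single libraries. In T24, MXD1 (-0.53) was lost without any of the untreated T24 libraries 1, 3 or 4 (adjusted p = 0.109, 0.0748 and 0.0579) and was at -0.16 without CLS-439 (0.597). MXD4 in T24 (-0.39) was called in 20 of 32 alternatives and was at 0.21 without CLS-439 (0.315). In 5637, MYCL (0.63) was lost without untreated replicate 3 or 4 (0.0652 and 0.0681), MAX (0.31) without replicate 1 (0.0525), and MNT (0.40) without replicate 1 or 4 (0.0730 and 0.0714). MNT in 5637 was at -0.080 without CLS-439 (0.679). In CLS-439, MXD3 (0.40) was called in 16 of 31 alternatives.

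MXD1 (chr2:69897688-69942945, plus strand) was the member that rose in T24, 5637 and TCC-SUP alike. MXD1 encodes a repressor that is known to be induced when cells leave the cycle and differentiate. In T24 it had 19.98, 22.5 and 20.8 CPM with MMC, against 5.54, 5.94 and 6.11 CPM untreated. In 5637 it had 28.5, 21.4 and 31.997 CPM with MMC, against 11.7, 12.0 and 13.1 CPM untreated. In TCC-SUP it had 4.11, 11.4 and 9.51 CPM with MMC, against 3.10, 3.83 and 3.80 CPM untreated. Every treated library lay above every untreated library of its line, although treated replicate 1 of TCC-SUP was close to the untreated ones. The log2 fold changes were 1.85 in T24 (SE 0.23, adjusted p = 2.85e-06), 1.15 in 5637 (SE 0.23, adjusted p = 0.000412) and 1.23 in TCC-SUP (SE 0.24, adjusted p = 0.000957). Of all genes tested, 4.09% were called higher in all 3 of these lines. In CLS-439, MXD1 had 20.4, 20.9 and 20.6 CPM with MMC, against 13.9, 12.6 and 15.1 CPM untreated. These groups did not overlap either, but the log2 fold change of 0.57 (SE 0.22, adjusted p = 0.456) did not pass the test in the fit of all lines. Fitted with the CLS-439 libraries alone it did (adjusted p = 0.0201).

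Since RNA was taken from whole cultures, a rise in each cell and a rise in some of the cells cannot be told apart. The MXD1 call held in 34 of 34 alternatives in T24, in 33 of 34 in 5637 and in 32 of 34 in TCC-SUP. Those that ended it left out replicate 4 of all groups (adjusted p = 0.0699 in 5637 and 0.106 in TCC-SUP) or replicate 3 of all groups (0.0660 in TCC-SUP). MXD1 shares 3.73% of its exon bases with SNRNP27, a splicing gene on the same strand, which rose by 0.54 in T24, by 0.52 in CLS-439, by 0.39 in TCC-SUP and by 0.38 in 5637. The part of those reads in the MXD1 count was not tested.

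**Figure D2:**
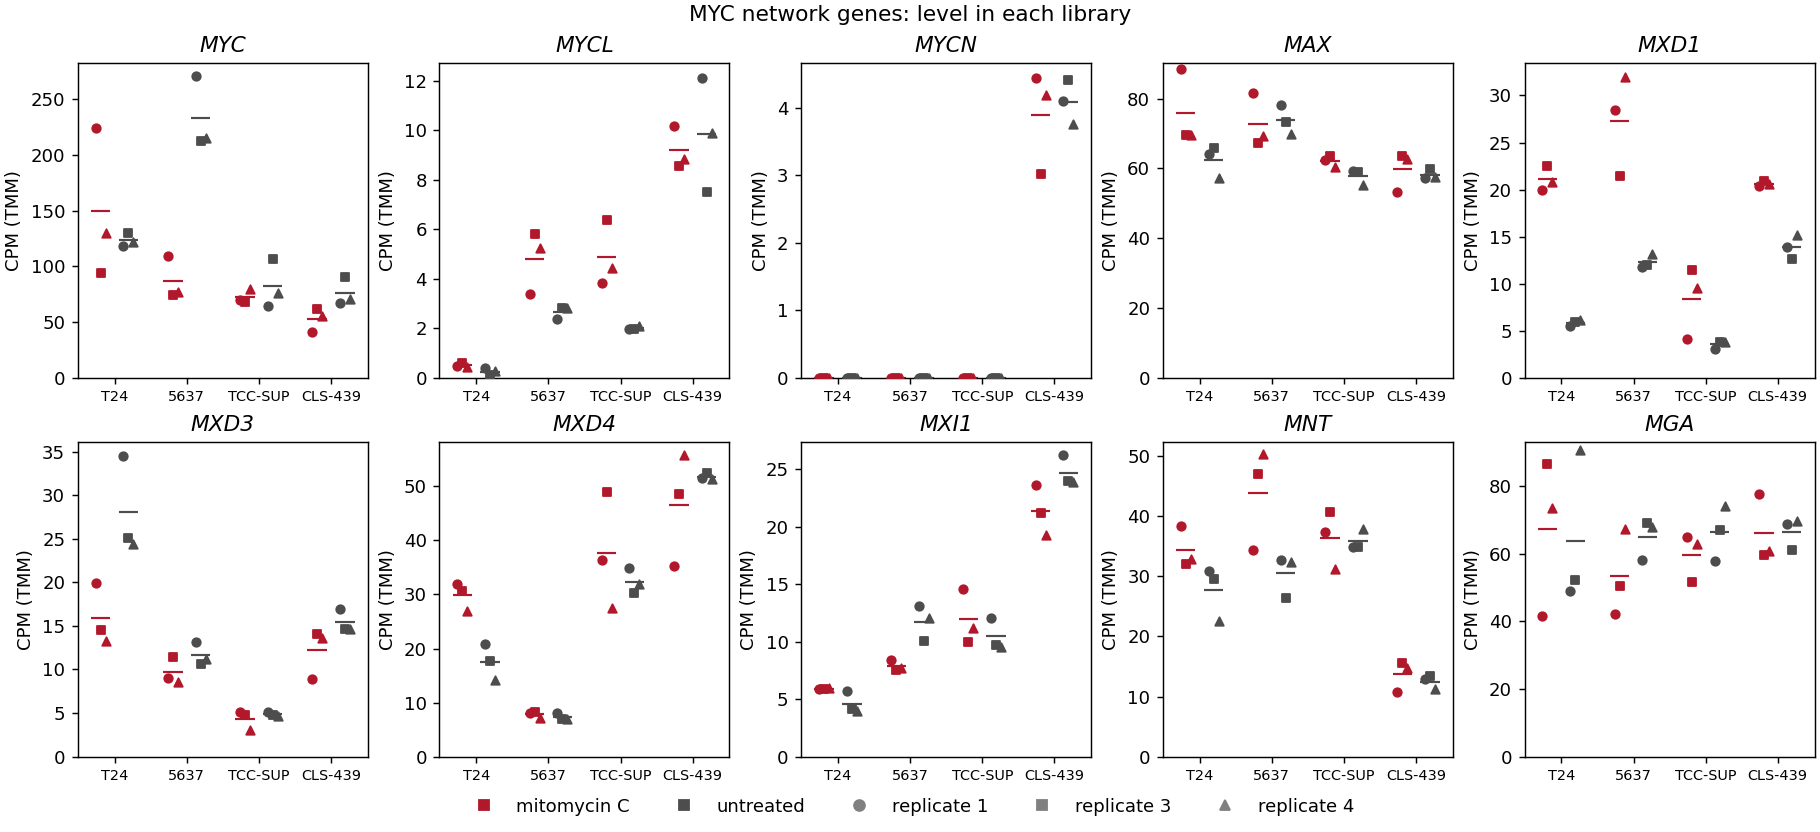
Level of each of the 10 network genes in every library, as TMM-scaled CPM on axes that start at 0, with mitomycin C left of untreated in each cell line and a marker shape for each replicate number. MXD1 is higher in every treated library than in every untreated library of the same line, and MYC is lower in treated 5637 at 74.4 to 109 CPM than in untreated 5637 at 212.5 to 271 CPM.

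Stretches before a RefSeq transcript start were read from RefSeq promoter windows (GRCh38.p14, 250 bases before to 50 after the start), which were found for 9 of the 10 members, in 14 windows. They are shown for MXD1 and MYCL, which rose in more than 1 line, and for MXD4 and MNT, whose windows hold the E-box. RefSeq and GENCODE differ in where transcripts start: the MXD1 and MYCL stretches lie inside the GENCODE spans given for these genes. Only bases outside every GENCODE exon of the gene are printed, 5′ to 3′ on the strand of the gene, with the E-box CACGTG in capitals. The MXD1 stretch is chr2:69914859-69915040 (plus strand), that of MYCL chr1:39902014-39902140 (minus), that of MXD4 chr4:2262295-2262359 (minus) and that of MNT chr17:2401119-2401310 (minus).
MXD1: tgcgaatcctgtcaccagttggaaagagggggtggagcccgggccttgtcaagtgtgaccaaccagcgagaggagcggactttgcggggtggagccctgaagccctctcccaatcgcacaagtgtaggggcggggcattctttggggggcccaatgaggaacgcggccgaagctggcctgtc
MYCL: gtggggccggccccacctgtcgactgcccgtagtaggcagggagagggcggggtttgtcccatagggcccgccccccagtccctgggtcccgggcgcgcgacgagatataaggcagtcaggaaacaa
MXD4: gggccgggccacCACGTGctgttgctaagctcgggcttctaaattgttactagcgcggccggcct
MNT: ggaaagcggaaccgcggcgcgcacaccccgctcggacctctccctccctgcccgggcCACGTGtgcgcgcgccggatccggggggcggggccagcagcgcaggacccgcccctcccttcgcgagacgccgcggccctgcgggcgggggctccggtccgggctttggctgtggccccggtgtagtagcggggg

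The E-box, searched as CACGTG, which reads the same on both strands, begins 238 bases before the start in MXD4 and 193 bases before it in MNT. It was in 2 of the 14 member windows and in 7.26% of all 35116 windows of the table. The AP-1 motif TGANTCA, searched on both strands, was in 1 member window, that of MXD3, and in 7.71% of all windows. The MXD1 and MYCL windows held neither motif. A match describes the letters only.

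MYC itself fell in 5637 and did not change by the test in the other lines. In 5637 it had 109, 74.4 and 77.2 CPM with MMC, against 271, 212.5 and 215 CPM untreated. All treated libraries lay below all untreated ones, and the log2 fold change was -1.42 (SE 0.24, adjusted p = 7.62e-05). This call held in 34 of 34 alternatives. With it, 5637 lost its place as the line with the most MYC: the order of the means with MMC was T24, 5637, TCC-SUP and CLS-439, and the neighbours overlapped except for TCC-SUP and CLS-439.

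In T24, MYC had 225, 93.9 and 130.01 CPM with MMC, against 118, 130.1 and 122 CPM untreated. The treated libraries lay on both sides of the untreated ones, and the log2 fold change of 0.28 (SE 0.23, adjusted p = 0.422) turned to -0.13 without treated replicate 1 (adjusted p = 0.718). Over the genes tested, the treated libraries numbered 1 of T24, 5637 and TCC-SUP deviated from their group means in the same way, with correlations across genes of 0.54 to 0.65. Those numbered 3 did so at 0.23 to 0.52 and those numbered 4 at 0.27 to 0.31. In TCC-SUP, MYC had 70.2, 68.1 and 80.1 CPM with MMC, against 64.3, 107 and 76.1 CPM untreated, and the groups overlapped (log2 fold change -0.18, SE 0.23, adjusted p = 0.653). In CLS-439, MYC had 41.4, 61.9 and 55.6 CPM with MMC, against 67.2, 90.8 and 70.3 CPM untreated. All treated libraries lay below all untreated ones there, but the log2 fold change of -0.52 (SE 0.24, adjusted p = 0.596) did not pass the test.

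The response of MYC differed among the lines. The test over all 4 gave an adjusted p of 0.00603, and 16% of all genes tested passed it. The T24 response minus the 5637 response was 1.70 (SE 0.33, adjusted p = 0.00374), and the 5637 response minus the TCC-SUP response was -1.24 (SE 0.33, adjusted p = 0.0422). Without the CLS-439 libraries the difference among the remaining lines had an adjusted p of 0.0164 for MYC. Of 33 alternatives the call was lost in the one without replicate 4 of all groups (adjusted p = 0.355).

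PVT1, a long noncoding RNA gene next to MYC, was the only tested gene of 5 listed RNA genes at the MYC loci, of which 4 were found in the table. It averaged 9.35 CPM with MMC and 17.1 CPM untreated in 5637, and fell by 0.87 on the log2 scale (SE 0.29, adjusted p = 0.0242). The PVT1 call was lost without treated replicate 3 (adjusted p = 0.139), treated replicate 4 (0.0808), untreated replicate 3 (0.0707) or untreated replicate 1 of 5637 (0.0504). Its log2 fold changes were 0.38 in T24 (adjusted p = 0.357), -0.70 in TCC-SUP (0.0876) and -0.22 in CLS-439 (0.972).

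**Figure D3:**
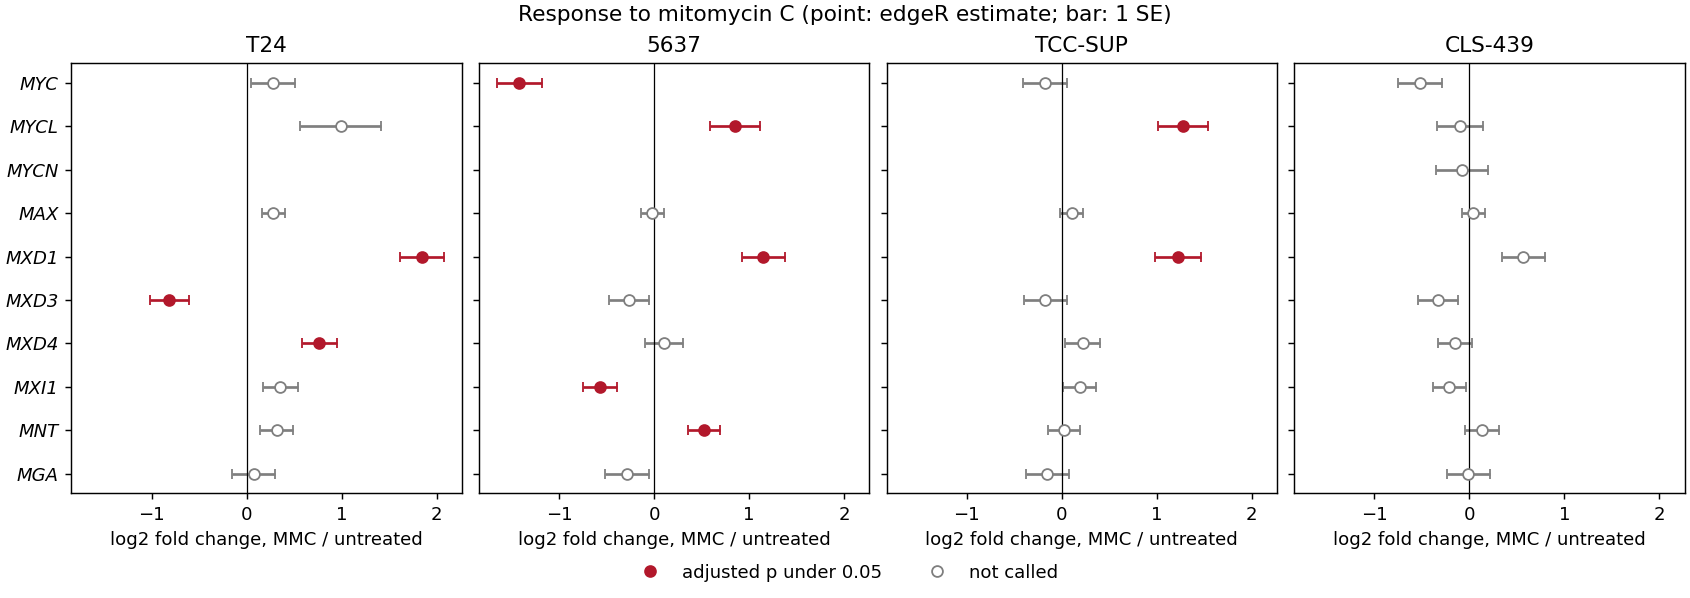
Log2 fold change of mitomycin C over untreated cells for each network gene in each line, as the edgeR estimate (point) with 1 SE (bar), filled where the adjusted p was under 0.05. MXD1 is called at 1.85, 1.15 and 1.23 in T24, 5637 and TCC-SUP, MYC at -1.42 in 5637 only, and no member is called in CLS-439.

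MYCL rose in 5637 and TCC-SUP. In 5637 it had 3.37, 5.80 and 5.26 CPM with MMC, against 2.39, 2.80 and 2.80 CPM untreated (log2 fold change 0.85, SE 0.26, adjusted p = 0.0146). In TCC-SUP it had 3.83, 6.37 and 4.45 CPM with MMC, against 1.96, 1.99 and 2.09 CPM untreated (log2 fold change 1.28, SE 0.26, adjusted p = 0.00134). The groups did not overlap in either line. In T24, where MYCL was near its lower limit, it had 0.49, 0.59 and 0.45 CPM with MMC, against 0.39, 0.091 and 0.26 CPM untreated (log2 fold change 0.99, SE 0.43, adjusted p = 0.0857). In CLS-439, with the most MYCL, it had 10.2, 8.57 and 8.83 CPM with MMC, against 12.1, 7.50 and 9.89 CPM untreated, and the groups overlapped (-0.10, SE 0.24, adjusted p = 1). The MYCL call in 5637 was lost without untreated replicate 1 (adjusted p = 0.0647), treated replicate 3 (0.0864) or treated replicate 4 (0.0543).

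The difference of the MYCL response among the 4 lines had an adjusted p of 0.0353, and the TCC-SUP response minus the CLS-439 response was 1.38 (SE 0.36, adjusted p = 0.0368). Among T24, 5637 and TCC-SUP alone the adjusted p for MYCL was 0.780. The call was also lost when any of 10 single libraries was left out: treated replicate 4 of 5637, untreated replicates 1, 3 and 4 or treated replicate 3 of TCC-SUP, or untreated replicates 1 and 4 or any treated replicate of CLS-439 (adjusted p up to 0.126). MYCN, read in CLS-439 only, had 4.44, 3.02 and 4.19 CPM with MMC, against 4.10, 4.41 and 3.76 CPM untreated, and the groups overlapped (log2 fold change -0.08, SE 0.27, adjusted p = 1).

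MAX (chr14:65006174-65102695, minus strand), the shared partner, was not called in any line. Its log2 fold changes were 0.28 in T24 (SE 0.12, adjusted p = 0.0875), -0.02 in 5637 (SE 0.12, adjusted p = 0.975), 0.10 in TCC-SUP (SE 0.12, adjusted p = 0.606) and 0.04 in CLS-439 (SE 0.12, adjusted p = 1). In T24 it had 88.4, 69.6 and 69.4 CPM with MMC, against 64.2, 65.8 and 57.4 CPM untreated, without overlap. DESeq2 called MAX in T24 (adjusted p = 0.0292).

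Among the other repressors, MXD3 and MXD4 moved in opposite directions in T24. MXD3 (chr5:177301461-177312757, minus strand), which in mouse is known to be made in cells in S phase, had 19.98, 14.5 and 13.3 CPM with MMC, against 34.5, 25.1 and 24.4 CPM untreated. It fell by 0.82 on the log2 scale (SE 0.21, adjusted p = 0.00433). MXD4 (chr4:2247432-2262294, minus strand), whose mouse counterpart is made in differentiating cells, had 31.99, 30.6 and 27.0 CPM with MMC, against 20.9, 17.7 and 14.1 CPM untreated. It rose by 0.76 (SE 0.19, adjusted p = 0.00309). The groups did not overlap for either gene, and each call was lost only without replicate 4 of all groups, in 1 of 34 alternatives (adjusted p = 0.0744 for MXD3 and 0.0803 for MXD4). Neither gene was called in another line, where log2 fold changes lay between -0.33 and -0.18 for MXD3 and between -0.15 and 0.22 for MXD4. Exons of MXD3 overlap RAB24 on the same strand in 18% of their bases and PRELID1 on the other strand in 22.5%. The strand setting of the counting is not given, so the MXD3 counts are uncertain. PRELID1 had 1045 to 8570 reads per library and a log2 fold change of -0.13 in T24 (adjusted p = 0.476), and RAB24 had 44 to 146 reads and 0.20 (adjusted p = 0.618).

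MXI1 (chr10:110207605-110287365, plus strand), a relative of the MXD proteins, fell in 5637. It had 8.42, 7.51 and 7.73 CPM with MMC, against 13.1, 10.05 and 12.0 CPM untreated, without overlap (log2 fold change -0.57, SE 0.18, adjusted p = 0.0162). Its log2 fold change was 0.35 in T24 (SE 0.18, adjusted p = 0.162), 0.19 in TCC-SUP and -0.21 in CLS-439. The T24 response of MXI1 minus its 5637 response was 0.92 (SE 0.25, adjusted p = 0.0428). The MXI1 call in 5637 was lost without the filter on low counts (adjusted p = 0.0616), without untreated replicate 1 (0.0706), treated replicate 3 (0.0613) or treated replicate 4 (0.0510).

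MNT (chr17:2384060-2401118, minus strand), the most broadly expressed of the repressors in mammals, rose in 5637. It had 34.3, 47.0 and 50.3 CPM with MMC, against 32.7, 26.4 and 32.4 CPM untreated, and treated replicate 1 was just above the untreated libraries (log2 fold change 0.53, SE 0.17, adjusted p = 0.0224). Its values were 0.32 in T24 (SE 0.17, adjusted p = 0.184), 0.02 in TCC-SUP and 0.13 in CLS-439. The MNT call in 5637 was lost without the filter (adjusted p = 0.0677), without untreated replicate 3 (0.132), treated replicate 3 (0.0844) or treated replicate 4 (0.123). MGA (chr15:41621224-41773081, plus strand) was called in no line, with log2 fold changes between -0.29 in 5637 and 0.07 in T24 and group means between 53.4 and 67.2 CPM.

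By line, MMC thus raised MXD1 and MXD4 and lowered MXD3 in T24, raised MYCL, MXD1 and MNT and lowered MYC and MXI1 in 5637, and raised MYCL and MXD1 in TCC-SUP. That is 3, 5 and 2 of the 9 members with reads. Of all genes tested 28.6%, 29.4% and 20.7% were called in T24, 5637 and TCC-SUP, so the members' shares in T24 and TCC-SUP are near the background, and the share in 5637, 55.6%, is larger, on 9 genes. The count in 5637 was 2 without treated replicate 3 or treated replicate 4 of that line, 3 without its untreated replicate 1 and 3 without the filter on low counts. No member of 10 was called in CLS-439 by edgeR, where 0.62% of all genes were, and none by DESeq2, which called 238 of all genes there. In that line 2 members, MYC and MXD1, had an unadjusted p under 0.05 by edgeR, as did 1623 of all 20820 genes. DESeq2 called 4, 5 and 2 members in T24, 5637 and TCC-SUP, and 6230, 6372 and 4646 of all genes. Members with no overlap of treated and untreated libraries numbered 7 of 9 in T24, 5 of 9 in 5637, 3 of 9 in TCC-SUP and 4 of 10 in CLS-439. Of all genes 34.6%, 40.5%, 37.7% and 21.9% showed no overlap in these lines. The median log2 fold change of the members was 0.32, -0.02, 0.10 and -0.09 in the order T24, 5637, TCC-SUP and CLS-439, and that of all genes 0 in each.

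Averaged over the 4 lines, MXD1 rose by 1.197 (SE 0.12, adjusted p = 1.81e-08), MYCL by 0.75 (SE 0.15, adjusted p = 0.00033) and MNT by 0.25 (SE 0.09, adjusted p = 0.0254), while MYC fell by 0.46 (SE 0.12, adjusted p = 0.00291) and MXD3 by 0.40 on the log2 scale (SE 0.11, adjusted p = 0.00449). These are 5 of 9 members, where 36.6% of all genes were called. Without CLS-439 in the average, MXD1 was at 1.41, MYCL at 1.04, MNT at 0.29, MYC at -0.44 and MXD3 at -0.42, all called. MXD4 was then called too, at 0.36 (SE 0.11, adjusted p = 0.00868), which made 6 of 9 against 43.2% of all genes. The main fit held no term for deviations that treated cultures with the same number had in common across T24, 5637 and TCC-SUP. Their correlations are given above with MYC in T24. Where deviations are shared in this way, the SE and adjusted p of an average over lines can be too small. By how much was not tested. Within single lines MYC was called in 5637 only and MXD3 in T24 only. Both means for MYC were lost without replicate 3 or replicate 4 of all groups (adjusted p up to 0.0659 with CLS-439 and 0.194 without it). Both means for MXD3 were lost without replicate 4 of all groups (0.0678 and 0.118), and that for MXD4 without replicate 3 (0.253). The mean for MNT was lost when any of 7 single libraries was left out, namely untreated replicate 4 of T24, untreated replicate 3 or treated replicate 4 of 5637, treated replicate 3 of TCC-SUP, and treated replicates 3 and 4 or untreated replicate 4 of CLS-439 (adjusted p up to 0.0641).

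Besides MYC and MYCL, the response of MXD1 (adjusted p = 0.0416) and of MXI1 (0.0384) differed among the 4 lines. The T24 response of MXD1 minus its CLS-439 response was 1.28 (SE 0.32, adjusted p = 0.0121), and that of MXD4 was 0.92 (SE 0.26, adjusted p = 0.025), although MXD4 was not called among the 4 lines (0.0708). Over pairs of lines 3.47% of all genes were called between T24 and 5637, 10.1% between T24 and CLS-439, 2.7% between 5637 and TCC-SUP and 2.65% between TCC-SUP and CLS-439. Members' calls between pairs were not followed through the alternatives. Without replicate 4 of all groups, 21 of all genes were called between T24 and 5637 and 101 between T24 and CLS-439, in place of 722 and 2110. Between 5637 and TCC-SUP 3 were called in place of 562. Between TCC-SUP and CLS-439 0 were called in place of 551, so the MYCL call was lost there. Among T24, 5637 and TCC-SUP alone the adjusted p of the difference among lines was 0.392 for MXD1 and 0.0947 for MXI1. The 4-line call was made in 13 of 33 alternatives for MXD1 and 15 of 33 for MXI1. Leaving out any CLS-439 library ended the MXD1 call, as did leaving out any untreated library of T24, 5637 or TCC-SUP or treated replicate 3 or 4 of T24 (adjusted p up to 0.0953). The MXI1 call ended without untreated replicates 3 and 4 or treated replicate 4 of T24, untreated replicates 1 and 4 or treated replicates 3 and 4 of 5637, untreated replicates 3 and 4 of TCC-SUP, or any CLS-439 library but treated replicate 1 (adjusted p up to 0.0942).

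The balance of the network was described by the share of MYC, MYCL and MYCN in the summed CPM per kb of these 3 genes and the repressors MXD1, MXD3, MXD4, MXI1, MNT and MGA. In 5637 the share was 70.5%, 60.9% and 58.5% with MMC, against 85.5%, 83.5% and 82.4% untreated. The means were 63.3% ± 6.35 with MMC and 83.8% ± 1.55 untreated (SD, n = 3 each), a difference of -20.5 percentage points. The two-sided exact permutation test gave p = 0.1, the smallest that 3 against 3 libraries allow. In T24 the share was 69.8% ± 9.41 with MMC and 71.2% ± 2.54 untreated (exact permutation p = 0.8), in TCC-SUP 58.9% ± 4.51 and 62.5% ± 6.39 (exact p = 0.6), and in CLS-439 48.5% ± 2.51 and 55.4% ± 3.89 (exact p = 0.1). In 5637 the summed level of the MYC family was 29.9 CPM per kb with MMC and 78.1 untreated, and that of the repressors 17.1 and 15.0. The shares count messenger RNA, not protein.

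**Figure D4:**
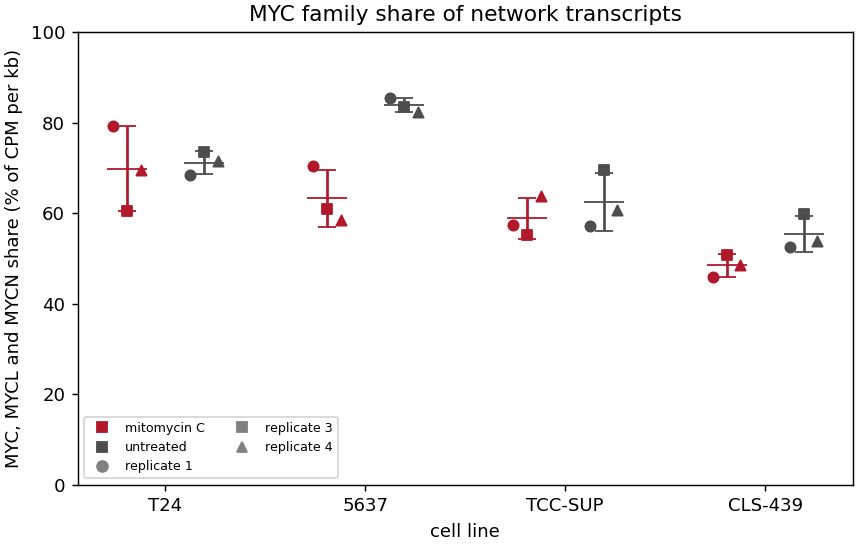
Share of MYC, MYCL and MYCN in the summed CPM per kb of these genes and the MXD, MNT and MGA repressors, in percent, for each library (points) with the group mean and SD, mitomycin C left of untreated. The treated 5637 libraries lie at 58.5% to 70.5% and the untreated ones at 82.4% to 85.5%.

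Across the 24 libraries, the genes whose log2 level followed MYC most closely were RPL19 (Pearson r 0.913), RABEPK (0.900) and RPL27 (0.898), among 12941 protein-coding genes with at least 1 CPM on average. RPL19 and RPL27 encode ribosomal proteins. Those most like MXD1 were TEX30 (0.939), RNF19B (0.914) and ELL (0.909), and those most like MYCL were TSPAN2 (0.949), ARMCX1 (0.948) and UBL3 (0.945). MXD4 was most like PPP2R5D (0.967), MNT most like TNFAIP2 (0.968), MXI1 most like KCNMB4 (0.961) and MXD3 most like SUSD5 (0.946). MAX and MGA had lower maxima, at 0.908 with UBE2M and 0.851 with RBM25. The 24 points are 8 groups of 3 that share a line and a treatment, and these values were not split into differences between lines and differences with treatment.

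Further genes of the pathway were described in lists, whose counts are read against the background. Of all genes tested, T24 had 15.2% called higher and 13.4% lower, 5637 had 15.9% higher and 13.6% lower, TCC-SUP had 9.57% higher and 11.1% lower, and CLS-439 had 0.298% higher and 0.322% lower. A list gene named below kept its call with any 1 library left out, except where the text gives a loss.

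Of the MLX branch, the parallel network in which MLX pairs with the glucose sensors MLXIP and MLXIPL, 2 of 5 genes rose and 1 fell in T24. TXNIP, a target of that branch that limits glucose uptake, averaged 323 CPM with MMC and 75.5 CPM untreated in T24 (fold change 2.10 on the log2 scale, SE 0.20, adjusted p = 6.47e-08), and it rose by 0.67 in 5637 (SE 0.20, adjusted p = 0.0115). The TXNIP call in 5637 was lost without treated replicate 1 (adjusted p = 0.0765) or untreated replicate 1 (0.0655). ARRDC4, its relative, rose by 1.26 in T24 and by 1.79 in TCC-SUP. MLX had a log2 fold change of -0.45 in T24 (SE 0.17, adjusted p = 0.0438), a call that was lost under DESeq2 (0.0534) and without any of 9 single libraries, among them treated and untreated replicates 3 and 4 of T24 (up to 0.208). In CLS-439 no gene of the branch was called by edgeR or DESeq2, and 0 of 5 had an unadjusted p under 0.05.

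Of 15 cofactors of MYC, 4 rose and 0 fell in T24, 2 rose and 2 fell in 5637, and 5 rose and 2 fell in TCC-SUP. The shares called higher were 26.7% in T24, 13.3% in 5637 and 33.3% in TCC-SUP, and those in 5637 were near the background in both directions. In T24, DESeq2 called 0 lower, and 0 had a lower level at an unadjusted p under 0.05. In CLS-439, 0 were called by edgeR, 0 by DESeq2 and 0 at an unadjusted p under 0.05. With 1 library left out, the number called lower lay between 0 and 2 in T24 and between 1 and 5 in 5637, and the number called higher between 2 and 5 in TCC-SUP. With the replicate number as a block, 5 were called lower in 5637. The medians of the cofactors were 0.09, -0.15, -0.04 and -0.05, against 0 for all genes. ZBTB17, the zinc finger protein MIZ1 through which MYC represses genes, had 71.6 CPM with MMC and 29.4 CPM untreated in T24 (1.28, SE 0.18, adjusted p = 1.32e-05) and rose by 0.81 in 5637 (SE 0.18, adjusted p = 0.00152). CCNT1, the cyclin of the elongation kinase P-TEFb, rose by 0.97 in T24, a call lost without treated replicate 3 (adjusted p = 0.0697). EP400, a chromatin remodeler, fell by 0.95 on the log2 scale in TCC-SUP. The calls lower in 5637 were EP400 at -0.67, lost without treated replicate 3 (adjusted p = 0.0559), and RUVBL1, a helicase, at -0.68, lost without treated replicate 4 (0.0545).

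Of 10 corepressors used by the MXD proteins and MNT, 4 fell in T24, 3 in 5637 and 2 in TCC-SUP. In CLS-439 the count was 0 by edgeR, 0 by DESeq2 and 0 at an unadjusted p under 0.05. No corepressor was called higher by edgeR in any line. DESeq2 called 1 higher in T24, and 1 had an unadjusted p under 0.05 there. SAP30, a subunit of the SIN3 complex, had 16.5 CPM with MMC and 30.0 CPM untreated in T24 (-0.86, SE 0.17, adjusted p = 0.000637). NCOR1 fell by 0.76 in 5637 and by 0.72 on the log2 scale in TCC-SUP. SUDS3, also of the SIN3 complex, fell by 0.63 on the log2 scale in 5637. With 1 library left out, between 1 and 4 were called lower in T24, 2 and 3 in 5637, and 1 and 2 in TCC-SUP.

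Of 9 partners of MGA in its Polycomb complex, 1 rose and 3 fell in T24, 1 rose and 1 fell in 5637, and none was called by edgeR in TCC-SUP or CLS-439. The share of 1 in 9 is 11.1%, below the background of either direction in T24 and 5637. The share called lower in T24 was 33.3%, against 13.4% of all genes. With 1 library left out, between 2 and 3 were called lower in T24, and without replicate 4 of all groups 0 were. DESeq2 called 0 higher in CLS-439 and 2 in TCC-SUP, and the same numbers had an unadjusted p under 0.05. L3MBTL2 rose by 0.57 in T24. Its log2 fold change in 5637 was 0.36, a call lost with the replicate number as a block (adjusted p = 0.0742) and without any of 19 single libraries (up to 0.293). CBX3 fell by 0.68 and RNF2 by 0.51 on the log2 scale in T24, and RNF2 was not called without the filter (adjusted p = 0.0519).

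Of 18 genes that set the life of MYC protein, 2 rose and 4 fell in T24, 1 rose and 5 fell in 5637, and 2 rose and 4 fell in TCC-SUP. The share called higher was 11.1% in T24, 5.56% in 5637 and 11.1% in TCC-SUP, and the share called lower was 22.2%, 27.8% and 22.2%. AURKA alone was called in CLS-439. AURKA, the mitotic kinase that also stabilizes MYC family proteins, fell by 1.06 in T24, fell by 1.23 in 5637 and fell by 0.87 on the log2 scale in CLS-439. Its log2 fold change in TCC-SUP was -0.39 (adjusted p = 0.0255), a call lost without any of 4 single libraries (up to 0.121). USP36, a nucleolar deubiquitinase of MYC, rose by 1.35 in T24 (SE 0.13, adjusted p = 6.19e-08) and 0.63 in TCC-SUP. With 1 library left out, the number called lower lay between 0 and 5 in TCC-SUP.

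Genes known to be activated by MYC moved in both directions. Of 57 such genes, 7 rose and 9 fell in T24 (median 0.07), 6 rose and 18 fell in 5637 (median -0.28), 15 rose and 3 fell in TCC-SUP (median 0.31), and 0 rose and 2 fell in CLS-439 (median -0.09), with a median of 0 for all genes. In CLS-439, DESeq2 likewise called 0 higher and 2 lower, and 1 had a higher and 5 a lower level at an unadjusted p under 0.05. The shares called lower in T24 and 5637 were 15.8% and 31.6%, against 13.4% and 13.6% of all genes, and the share called higher in TCC-SUP was 26.3%, against 9.57%. SLC19A1, a folate carrier, had 36.5 CPM with MMC and 131 CPM untreated in 5637 (-1.85, SE 0.23, adjusted p = 2.25e-06). PLK1, a mitotic kinase, had log2 fold changes of -1.74 in T24, -1.59 in 5637, -1.01 in CLS-439 and -0.72 in TCC-SUP, each of which passed the test. NPM1, the abundant nucleolar protein, fell by 1.15 in T24 and 1.26 in 5637, and HK2, a glycolytic enzyme, by 1.28 in T24. NOLC1, BYSL and WDR74, which act in ribosome production, rose by 0.91, 0.80 and 0.80 in TCC-SUP. MCM5, a subunit of the replicative helicase, had a log2 fold change of -0.57 in CLS-439, a call lost without treated replicate 1 or 4 or any untreated replicate of that line (adjusted p up to 0.175).

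With 1 library left out, between 15 and 24 activated genes were called lower in 5637 and between 9 and 18 called higher in TCC-SUP. Without replicate 3 of all groups, 1 rose and 10 fell in 5637 and 4 rose and 1 fell in TCC-SUP. Without replicate 4 of all groups, 1 rose and 6 fell in 5637 and none was called in TCC-SUP, where 273 of all genes were then called in place of 4306.

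Of 10 genes known to be repressed by MYC, 5 rose and 1 fell in T24, 4 rose and 2 fell in 5637, 2 rose and 1 fell in TCC-SUP and 1 rose in CLS-439, with medians of 1.27, 0.90, 0.24 and 0.13. T24 had 50% of them called higher, 5637 had 40%, TCC-SUP had 20% and CLS-439 had 10%, all above the background given for each line. These shares rest on 10 genes, and that in CLS-439 on CDKN1A alone. The shares called lower were 10%, 20%, 10% and 0% in the same order, and that in 5637 was also above the background of 13.6%. GADD45A, a DNA damage response gene, had 722 CPM with MMC and 81.1 CPM untreated in T24 (3.15, SE 0.16, adjusted p = 2.19e-12). It also rose by 1.76 in 5637 and by 0.71 in TCC-SUP. CDKN1A, the cell cycle inhibitor p21, rose by 2.59 in T24, by 2.58 in CLS-439, by 1.27 in 5637 and by 1.21 in TCC-SUP. CDKN2B, an inhibitor of the cyclin D kinases, rose by 2.53 in T24 and 2.54 in 5637. CCND1 fell by 1.21 in T24 and by 0.98 in 5637, and THBS1 fell by 1.48 in 5637 and by 1.03 on the log2 scale in TCC-SUP. GADD45A and CDKN1A are also known targets of p53.

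**Figure D5:**
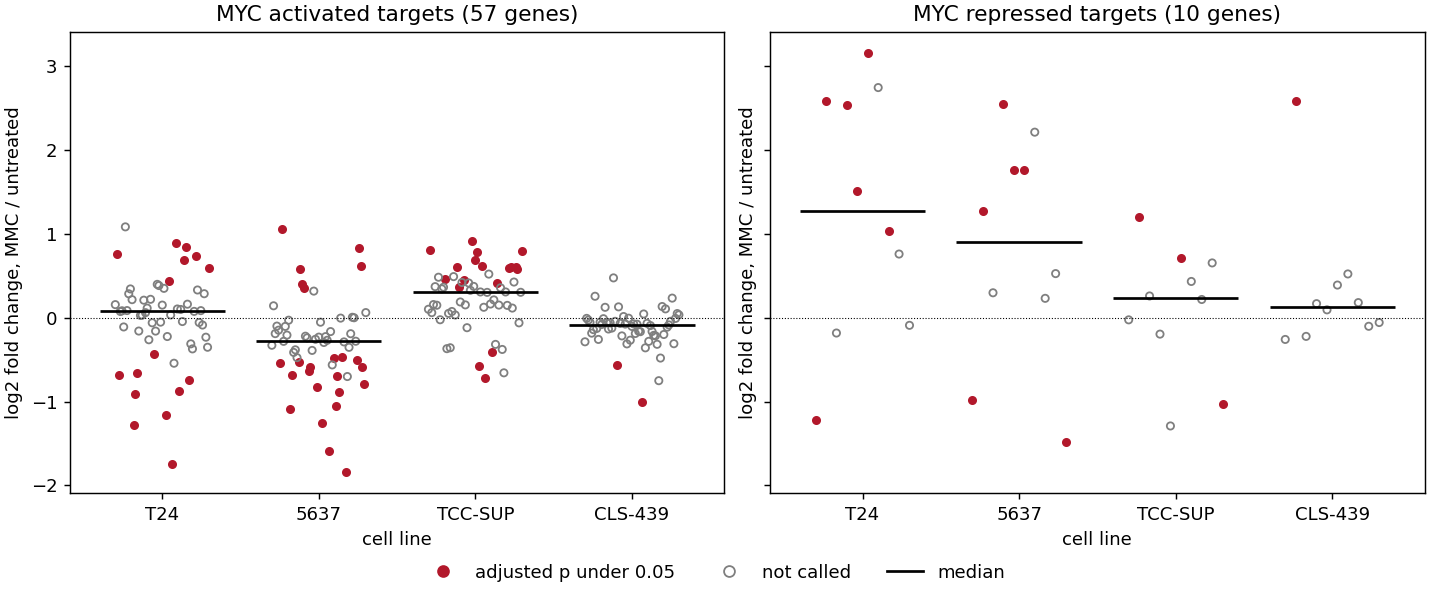
Log2 fold change of mitomycin C over untreated cells for 57 genes activated and 10 genes repressed by MYC in each line (1 point per gene, filled where the adjusted p was under 0.05, bars at the median). The medians of the activated genes are 0.07, -0.28, 0.31 and -0.09 in T24, 5637, TCC-SUP and CLS-439.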

How the data were processed

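The authors deposited raw read counts per Ensembl gene for the 24 libraries, and no scaling had been applied to them. STAR 2.5.3a, featureCounts 1.6.2 and GRCh38 are named in the submitters' processing notes. Not given in the sources used here are the annotation release, how strand was set and what became of multi-mapping reads, which leaves overlapping genes, antisense genes and near-identical copies uncertain. Treated samples carry the tag MCC, taken here for MMC because the protocol names only mitomycin C. Symbols, coordinates and exon lengths came from GENCODE 29, which holds 58216 of the IDs, and 165 IDs with 0.00717% of the reads were without a symbol.

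edgeR 4.0.16 (R 4.3.3) tested the counts with these settings: filterByExpr by group, TMM, 1 mean per group over all 24 libraries, robust quasi-likelihood estimates, 16 residual degrees of freedom, Benjamini-Hochberg adjustment over 20820 genes at 0.05. DESeq2 1.42.0 was an alternative. Other alternatives were DESeq2 size factors, no filter, replicate blocks, each line alone, no CLS-439 (for the untreated comparisons chosen after seeing the data), and each library or replicate number left out. The members and gene lists were chosen with earlier results of these data known. All 10 members were named, with at most 3 called genes per longer list and line, any gene of lists of up to 10, and the 3 genes of highest correlation with a member (log2 of CPM plus 0.5). Values of a gene so named are also given in some of the other lines where it was called. They are not given in all, so a line left out may also hold a call. The result of a single listed gene is left out and not reported here.

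Libraries of the same group differed by a chi-square per gene of at least 4.10, so no library was a copy of another. Deviations from group means of same-numbered treated and untreated libraries were compared by correlation. The values were 0.32, 0.17 and 0.48 in 5637 and 0.47, 0.36 and 0.19 in CLS-439 (numbers 1, 3 and 4). They were positive for each number but were not compared with those of unlike numbers. Whether the numbers pair the libraries of these lines is therefore undecided. In T24 (0.43, -0.21 and 0.49) and TCC-SUP (0.12, -0.026 and -0.22) the signs were mixed, so pairing by number is undecided there too. p-values measure the spread between these cultures of established lines. Those of averages over lines carry the further limit given with them. On simulated counts (20203 genes), 83% to 89% of genes changed by a log2 of 1 and 100% of those changed by 2 were recovered in the responses of the 4 lines. Changes were planted only in genes above a minimum level in every untreated line, which MYCL, MYCN, MXD1, MXD3 and MXI1 did not reach. The simulated libraries also lacked the shared deviations of same-numbered libraries. Recovery for these members, or with such deviations, was not tested.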

Additional observations from a re-analysis of the deposited data

Results flagged for a closer look

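The response to MMC differed among the 4 lines, by the test of the difference itself, for 4 members. The adjusted p was 0.00603 for MYC, called lower in 5637 only, and 0.0353 for MYCL, called higher in 5637 and TCC-SUP. It was 0.0384 for MXI1, called lower in 5637 only, and 0.0416 for MXD1, with the largest rise in T24. The 5637 response minus the CLS-439 response was not called for MYC (adjusted p = 0.0929) or MXI1 (0.424). Called or not within a line does not show a difference, and the pairs of lines called different are those named above, with the limit given there. Of all genes tested, 16% passed the same test. In the fit without CLS-439, whose libraries stood apart in mitochondrial and pseudogene reads, the adjusted p was 0.0164 for MYC, 0.780 for MYCL, 0.0947 for MXI1 and 0.392 for MXD1.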

How the results depend on the processing

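Of the member values recomputed, 3105 kept their side of the threshold, 146 lost it and 19 gained it. The 3 others, called with or without the line, changed sign, all in the untreated comparisons without CLS-439, an alternative chosen after seeing the data: MXD4 in T24 at 0.21, MNT in 5637 at -0.080 and MXI1 in TCC-SUP at 0.52. In that comparison 3 members were called in untreated T24, where 8975 of all genes were. No called response to MMC reversed. Without the filter on low counts, 3 members were called in 5637 and 3 in untreated 5637, where 6154 and 12305 of all genes were. With each line fitted alone, 1 member was called in CLS-439 (MXD1), where 673 of all genes were. Without CLS-439 in the fit 1 member differed among the lines (MYC), as did 937 of all genes. The MYC share in 5637 moved by -14.3 percentage points with the MXD family as the only repressors. With 1 library or 1 replicate number left out, the members called numbered 1 to 5 in T24, 1 to 5 in 5637, 0 to 2 in TCC-SUP, 0 to 0 in CLS-439, 2 to 6 for the mean, 3 to 6 for the mean without CLS-439, 0 to 5 for the difference among lines, and 3 to 5, 3 to 6, 4 to 5 and 6 to 7 in untreated T24, 5637, TCC-SUP and CLS-439. The difference in MYC share ranged from -8.43 to -4.76 in CLS-439, from -6.32 to -0.118 in TCC-SUP, from -24.1 to -18.1 in 5637 and from -6.14 to 3.27 in T24. The lowest counts came without replicate 4 of all groups, where 1573, 1892, 273 and 3 of all genes were called in T24, 5637, TCC-SUP and CLS-439, in place of 5947, 6128, 4306 and 129. The cause was not tested. With the replicate number as a block within each line, 3, 5, 2 and 0 members were called in the same order of lines, as without it, and 5 differed among the lines, MXD4 being added (adjusted p = 0.0441). The block changed no other call of a member. It raised the calls over all genes to 6443, 6735, 4960 and 188. Depth limits MYCL in T24, read at 0.091 to 0.59 CPM, and MYCN outside CLS-439.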
